A study of Mus musculus with 19 samples.

Results

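The imprinted growth network is a group of genes that are active mainly from 1 parental copy and that control fetal and postnatal growth. Its members here were Mest, Peg3, Igf2, H19, Plagl1, Grb10, Cdkn1c, Igf2r and Ndn, 9 genes named for their place in that network. Expression was read on Affymetrix mouse arrays from 19 samples, and each gene was read from the brightest probe set that carried its symbol alone. Of the 9 genes, 8 had such a probe set, among 22180 genes tested in all. H19 had none, because the probe set that carried its symbol also carried Mir675, the microRNA in its transcript.

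The tested tissue was angiosarcoma, a tumor of vessel-forming cells, with 7 samples from mice of genotype aP2-Cre/+;DicerFlox/-. In these mice 1 Dicer allele is null in the whole animal and the other, floxed, is removed where the aP2 (Fabp4) promoter drives Cre, which is active in fat cells and also in some endothelial cells. The normal tissues came from wild type mice and comprised 4 aortas, 4 sternocleidomastoid muscles of the neck and 4 quadriceps femoris muscles of the thigh. All groups were of mixed C57Bl/6 and 129X1/SvJ strain. Genotype and tissue changed together, since no tumor was wild type and no normal sample carried the Dicer alleles, so their contributions cannot be told apart. The labels gave no age, sex, litter or animal for any sample, so the p-values measure the spread between these samples only.

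Imprinted genes carry DNA methylation set in egg or sperm, and the mark decides which parental copy is transcribed. Mest, Peg3, Igf2, Plagl1 and Ndn are expressed from the paternal copy, and Grb10, Cdkn1c, Igf2r and H19 from the maternal copy in most mouse tissues. Paternally expressed genes of the network tend to promote growth and maternally expressed ones to restrain it, with exceptions such as Ndn. Most members are high in the fetus and are shut down after birth as tissues stop growing, and Plagl1 is a transcription factor that can activate several of the others.

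In the tumors, Mest was 34.1 times as high as in aorta and 29.2 times as high as in the muscles on the intensity scale. Peg3, Plagl1, Grb10 and Igf2r also rose against both normal tissues, Igf2 rose against aorta, and Cdkn1c fell against both. Ndn fell against aorta and showed no detectable difference from muscle. All differences below are of log2 intensity, with the standard error of limma's fit (± SE) and a Benjamini-Hochberg adjusted p over the 22180 genes; a gene was called at an adjusted p under 0.05. Group means carry the SD, with n = 7 tumors and n = 4 for each normal tissue.

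Of the 8 measured members, 6 were higher and 2 lower in tumors than in aorta, where 36.2% of all genes were called in either direction, 18.6% higher and 17.5% lower. The aorta calls of Igf2 and Cdkn1c lay near the threshold (limma, adjusted p = 0.0403 and 0.0367). Both were lost when certain single arrays were left out. Against the 8 muscle samples (the mean of the 2 muscle groups), 5 were higher and 1 lower, where 51% of all genes were called, 25.3% higher and 25.7% lower. The median difference of the 8 members was 1.42 against aorta and 0.93 against muscle, beside -0.022 and -0.038 over all genes. By parental copy, 4 of the 5 measured paternally expressed genes were higher than in aorta and 1 was lower, and 2 of the 3 maternally expressed genes were higher and 1 lower. Tumors and aortas did not overlap for 5 members, and tumors and muscles did not overlap for 4. Over all genes 23.7% of tumor and aorta groups and 27.3% of tumor and muscle groups did not overlap.

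**Figure D1:**
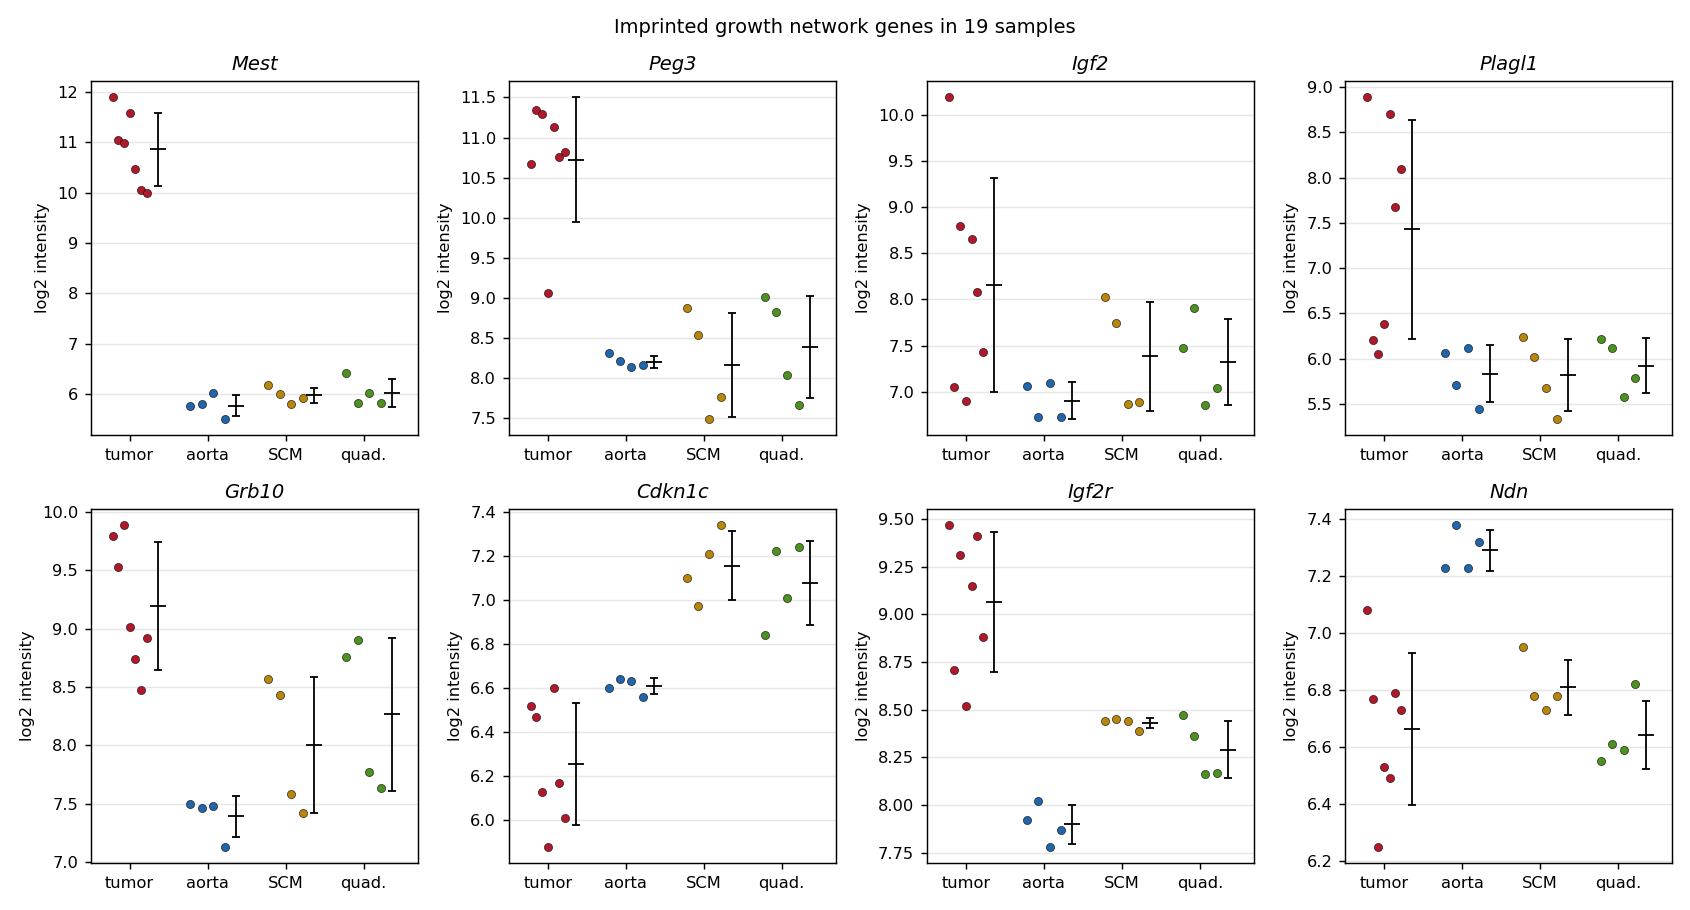
Log2 intensity of the 8 measured genes in every sample (vertical axis, own scale per gene), in tumors, aorta, sternocleidomastoid (SCM) and quadriceps (quad.); points are samples in label order, bars are mean ± SD. Mest lies between 10.00 and 11.90 in the tumors and below 6.5 in every normal sample, while Plagl1 and Igf2 spread widely among the tumors.

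Sequences of the microRNAs made from these transcripts and of the promoters of Mest and Peg3, the members with the largest differences, are shown first (RefSeq, build GRCm38.p6). Mir335 lies within Mest at chr6:30741314-30741336 for its 5p arm and chr6:30741354-30741375 for its 3p arm, plus strand. Mir675 lies in H19 at chr7:142577112-142577133 for its 5p arm and chr7:142577078-142577099 for its 3p arm, minus strand. Mir483 lies in Igf2 at chr7:142654968-142654989 for its 5p arm and chr7:142654932-142654952 for its 3p arm, minus strand. Capitals mark the seed, bases 2 to 8, which pairs with target transcripts; each seed was shared by no other of the 6 mature sequences. Dicer cuts the hairpins that yield these mature forms, and the arrays did not measure the mature forms.
miR-335-5p: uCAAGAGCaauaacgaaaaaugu
miR-335-3p: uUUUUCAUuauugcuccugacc
miR-675-5p: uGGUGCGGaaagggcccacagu
miR-675-3p: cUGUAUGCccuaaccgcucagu
miR-483-5p: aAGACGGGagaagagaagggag
miR-483-3p: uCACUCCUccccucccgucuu

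The promoter windows below hold the 250 bases before the annotated start, 5′ to 3′ on the gene's strand, with CG dinucleotides (CpG, the site of DNA methylation) in capitals. The Mest window lies at chr6:30737800-30738049 on the plus strand and holds 14 CpG sites. The Peg3 window lies at chr7:6730420-6730669 on the minus strand and holds 8. They are shown because methylation at the starts of Mest and Peg3 is what separates their parental copies; methylation was not measured in these samples.
Mest: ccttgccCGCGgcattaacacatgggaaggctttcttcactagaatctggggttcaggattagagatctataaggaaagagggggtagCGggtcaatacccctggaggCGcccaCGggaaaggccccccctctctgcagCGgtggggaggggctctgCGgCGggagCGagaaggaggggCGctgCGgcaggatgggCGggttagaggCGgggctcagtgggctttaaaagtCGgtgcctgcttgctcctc
Peg3: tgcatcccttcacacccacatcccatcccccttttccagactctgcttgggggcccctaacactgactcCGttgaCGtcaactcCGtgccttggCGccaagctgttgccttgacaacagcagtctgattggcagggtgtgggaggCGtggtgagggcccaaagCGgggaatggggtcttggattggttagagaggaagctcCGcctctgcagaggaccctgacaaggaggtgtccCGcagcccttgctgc

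Of the 9 members, 7 were matched to promoter windows (250 bases before to 50 after a start), which gave 13 windows because several have more than 1 start; Cdkn1c and H19 are named only. The 250 bases before the start held a median of 6 CpG sites over all 32851 windows. Grb10 had 40 at one start and 8 at another, a count of 40 or more being found in 1.31% of windows, and Igf2r had 27. GGGGCCCC, the core of the sequence that Plagl1 binds and the same on both strands, was found in 1 of the 13 windows, that of Peg3, and in 0.889% of all windows. CCATNTT, the core of the sites of Yy1, a factor with clustered sites at the Peg3 control region, was searched on both strands and found in 2 of the 13 windows, at 1 start each of Igf2 and Grb10, and in 12.4% of all windows. A match is a string of letters and does not show binding.

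The values ran from 1.6 to 13.8 on the log2 scale, and the medians of the 19 arrays lay between 5.35 and 5.48. Endothelial markers (10 of 10 higher against both normal tissues) had a mean level of 9.96 to 10.96 in tumors, against 8.66 to 8.78 in aorta, 7.89 to 8.29 in sternocleidomastoid and 7.83 to 8.09 in quadriceps. Mitotic genes (7 of 7 higher) stood at 7.34 to 8.80 in tumors, against 4.99 to 5.69 in aorta, 4.95 to 5.21 in sternocleidomastoid and 4.95 to 5.14 in quadriceps. Macrophage markers (7 of 7 higher against both) stood at 8.74 to 9.73 in tumors, against 7.39 to 7.72 in aorta. Fibroblast markers (3 of 7 higher in each tumor comparison) stood at 9.47 to 11.06 in tumors and 9.11 to 9.61 in aorta. In sternocleidomastoid they stood at 8.75 to 9.19 and in quadriceps at 8.61 to 9.21. Lower in tumors than in aorta were smooth muscle markers, at 8.10 to 9.60 against 9.97 to 10.54 in aorta (6 of 7), brown fat markers, at 4.66 to 8.33 against 10.49 to 11.27 (6 of 6), and heart muscle markers, at 5.38 to 6.02 against 9.74 to 10.46 (6 of 6). The aortas stood above the muscles too for these lists. Heart muscle markers were at 5.71 to 5.87 in sternocleidomastoid and 5.59 to 5.92 in quadriceps. Brown fat markers were at 8.64 to 9.87 in sternocleidomastoid and 6.73 to 8.25 in quadriceps. Adipocyte markers were lower than in aorta in 5 of 7, and their mean level was 6.02 to 10.83 in tumors against 10.22 to 10.42 in aorta. Tumors 5 and 6, at 10.83 and 10.22, reached the level of the aortas, and the other tumors did not. Smooth muscle markers were higher than in muscle in 6 of 7 and lower in 1, and satellite cell markers were lower than in muscle in 5 of 7 and higher in 1. Skeletal muscle markers ranged from 5.48 to 10.70 among tumors and from 6.65 to 8.68 among aortas, against 12.42 to 12.54 in sternocleidomastoid and 12.55 to 12.61 in quadriceps. In such bulk tissue, fewer cells of a type and less RNA per cell cannot be told apart, and the part of these differences in the values of the imprinted genes was not tested. The mean of 3 Y-linked genes was 7.76 to 8.67 in 7 samples (tumors 3 and 7, aorta 4, samples 3 and 4 of each muscle) and 3.47 to 3.91 in the other 12. Tumors 3 and 7 also had Xist, the RNA of the inactive X chromosome, at 8.97 and 7.77, against 5.06 to 5.71 in the other 5 samples with high Y-linked genes and 10.59 to 12.33 in the 12.

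Igf2 encodes insulin-like growth factor 2, the fetal growth hormone that signals through the Igf1 receptor and the insulin receptor. Its log2 intensity in the 7 tumors was 10.19, 7.05, 8.79, 6.90, 8.65, 8.08 and 7.43. It was 7.06, 6.73, 7.09 and 6.73 in the aortas. In sternocleidomastoid it was 8.03, 7.74, 6.87 and 6.89, and in quadriceps 7.47, 7.91, 6.86 and 7.04. Tumor 1 stood far above every normal sample, whereas tumors 2, 4 and 7 lay within the range of the normal tissues and tumor 6 just above it. The mean was 8.15 ± 1.16 in tumors and 6.90 ± 0.20 in aorta, a difference of 1.25 ± 0.46 (2.38-fold, adjusted p = 0.0403). That call was lost without any 1 of tumors 1, 3, 5 and 6 or of the 4 aortas, with an adjusted p of 0.0501 to 0.0931. Against muscle the difference was 0.80 ± 0.38 (adjusted p = 0.0878), which passed the threshold without tumor 2 (0.99, adjusted p = 0.0361) or without tumor 4 (1.01, adjusted p = 0.0298).

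Igf2r, the cation-independent mannose 6-phosphate receptor, carries Igf2 to lysosomes for breakdown and so limits its signal. It had 9.47, 8.71, 9.31, 8.52, 9.15, 9.41 and 8.88 in tumors. In aorta it had 7.92, 8.02, 7.78 and 7.87. The muscles lay between, at 8.44, 8.45, 8.44 and 8.39 in sternocleidomastoid and 8.47, 8.36, 8.16 and 8.17 in quadriceps. Every tumor was above every normal sample, and the lowest tumor, tumor 4, exceeded the highest muscle by a narrow margin. The means were 9.06 ± 0.37 in tumors and 7.90 ± 0.10 in aorta, a difference of 1.17 ± 0.15 (2.24-fold, adjusted p = 4.25e-06), and the difference from muscle was 0.70 ± 0.12 (adjusted p = 6.54e-05).

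Grb10 encodes an adaptor that binds the insulin and Igf1 receptors and dampens their signal. Tumors had 9.79, 9.53, 9.89, 9.01, 8.74, 8.47 and 8.92. Aortas had 7.50, 7.46, 7.48 and 7.13. In sternocleidomastoid the values were 8.57, 8.43, 7.58 and 7.42, and in quadriceps 8.76, 8.90, 7.77 and 7.63. All tumors exceeded all aortas, while tumors 5 and 6 overlapped the upper muscle samples. Mean levels of 9.19 ± 0.55 in tumors and 7.39 ± 0.18 in aorta differed by 1.80 ± 0.30 (3.48-fold, adjusted p = 9.56e-05), and tumors exceeded muscle by 1.06 ± 0.25 (adjusted p = 0.00137). With tumors 5 to 7 alone the difference from muscle was 0.58 (adjusted p = 0.119).

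Plagl1 (Zac1) encodes a zinc finger transcription factor of the network. Its tumor values were 8.89, 6.20, 6.05, 6.38, 8.70, 7.68 and 8.09. Tumors 1, 5, 6 and 7 stood above every normal sample, and tumors 2, 3 and 4 lay close to the highest normal samples. Aortas had 6.06, 5.71, 6.12 and 5.44. Sternocleidomastoid samples had 6.24, 6.02, 5.67 and 5.33, and quadriceps samples 6.22, 6.12, 5.57 and 5.78. The mean was 7.43 ± 1.21 in tumors and 5.83 ± 0.32 in aorta, a difference of 1.59 ± 0.46 (3.02-fold, adjusted p = 0.00973), and the difference from muscle was 1.56 ± 0.38 (adjusted p = 0.00176). With tumors 1 to 4 alone the difference from aorta was 1.05 (adjusted p = 0.0799), and with tumors 5 to 7 alone it was 2.32 (adjusted p = 7.93e-06). A second, very dim Plagl1 probe set stayed between 2.19 and 2.92 and did not share this difference (0.03 against aorta, adjusted p = 0.893 over all probe sets). As a mean over both probe sets, Plagl1 differed by 0.81 from aorta (adjusted p = 0.0174) and by 0.80 from muscle (adjusted p = 0.00351).

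Peg3 encodes a large zinc finger protein that is expressed from the paternal copy and is known for roles in maternal behaviour, muscle stem cells and growth. Tumors had 10.67, 11.34, 11.29, 9.06, 11.13, 10.76 and 10.82. Aortas were tightly grouped at 8.31, 8.21, 8.14 and 8.17. The muscles had 8.87, 8.54, 7.49 and 7.77 in sternocleidomastoid and 9.01, 8.83, 8.04 and 7.67 in quadriceps. Tumor 4 was the lowest tumor and only just above the highest muscle sample, and the other 6 tumors were at 10.67 or more. Means of 10.72 ± 0.78 in tumors and 8.21 ± 0.07 in aorta gave a difference of 2.51 ± 0.36 (5.7-fold, adjusted p = 1.89e-05), and against muscle it was 2.45 ± 0.30 (adjusted p = 9.72e-07). A probe set that carries both Peg3 and its antisense gene Peg3os differed by 1.91 ± 0.32 from aorta and by 1.28 ± 0.26 from muscle (adjusted p = 0.000154 and 0.000548 over all probe sets).

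Peg3 shares its imprinted domain with Usp29 and Zim1, and Mest overlaps the end of Copg2. Zim1 averaged 7.25 in tumors and 5.67 in aorta, a difference of 1.59 ± 0.46 (adjusted p = 0.0104). The muscles were nearer to the tumors, at 6.81 in quadriceps and 6.55 in sternocleidomastoid. Zim1 ranged from 5.73 to 8.73 among tumors, and tumor 1, the lowest, lay within the range of the aortas. Usp29, dim in both groups, averaged 4.79 in tumors and 3.56 in aorta, a difference of 1.22 ± 0.21 (adjusted p = 0.000101). In the muscles Usp29 averaged 4.16 in quadriceps and 3.88 in sternocleidomastoid. Copg2 averaged 8.18 in tumors and 8.38 in aorta, a difference of -0.20 ± 0.12 (adjusted p = 0.219), and it showed no detectable difference from muscle either (0.06, adjusted p = 0.629).

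Mest (Peg1) encodes an alpha/beta hydrolase family protein that is abundant in embryonic mesoderm and in expanding fat tissue and is low in adult muscle. The tumors had 11.90, 11.04, 10.99, 11.59, 10.47, 10.05 and 10.00. The aortas had 5.76, 5.80, 6.02 and 5.50. In sternocleidomastoid it was 6.17, 5.99, 5.80 and 5.92, and in quadriceps 6.42, 5.82, 6.02 and 5.83. All 12 normal samples lay between 5.50 and 6.42, near the median of the genes tested on an array (5.83 to 5.94), and no tumor came within 3 log2 units of them. The mean was 10.86 ± 0.73 in tumors and 5.77 ± 0.21 in aorta, a difference of 5.09 ± 0.28 (adjusted p = 3.14e-10) that ranked 2 among increases over all genes. Against muscle it was 4.87 ± 0.23 (adjusted p = 2.4e-12), which ranked 3.

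Cdkn1c encodes p57Kip2, an inhibitor of cyclin-dependent kinases that holds cells out of the cell cycle. Tumors had 6.52, 6.47, 6.13, 5.88, 6.60, 6.17 and 6.01. Aortas had 6.60, 6.64, 6.63 and 6.56. The muscles were higher, at 7.10, 6.97, 7.21 and 7.34 in sternocleidomastoid and 6.84, 7.22, 7.01 and 7.24 in quadriceps. All tumors were below all muscles, and tumor 5 reached the aortic range. The mean was 6.26 ± 0.28 in tumors and 6.61 ± 0.04 in aorta, a difference of -0.35 ± 0.13 (adjusted p = 0.0367), and the difference from muscle was -0.86 ± 0.11 (adjusted p = 9.91e-07). The aorta call was lost without any 1 of tumors 3, 4, 6 and 7 or of the 4 aortas, with an adjusted p of 0.0567 to 0.0803.

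Ndn encodes necdin, a growth-suppressing protein of the MAGE family that is made in postmitotic neurons and in stem cells of mesenchyme. Tumors had 7.08, 6.77, 6.25, 6.53, 6.49, 6.79 and 6.73. Aortas had 7.23, 7.38, 7.23 and 7.32. The muscles had 6.95, 6.78, 6.73 and 6.78 in sternocleidomastoid and 6.55, 6.61, 6.59 and 6.82 in quadriceps. All aortas were above all tumors, and the muscles lay inside the tumor range. Means of 6.66 ± 0.27 in tumors and 7.29 ± 0.08 in aorta differed by -0.63 ± 0.12 (adjusted p = 0.000263). Against muscle the difference was -0.06 ± 0.10 (95% interval -0.27 to 0.14, adjusted p = 0.612). With the arrays centred on housekeeping genes it was -0.24 (adjusted p = 0.0403). Of the 11 housekeeping genes, 9 were themselves called between tumors and muscle, or 81.8%, beside 51% of all genes. Centring on them moved the median difference of all genes from muscle to -0.21.

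**Figure D2:**
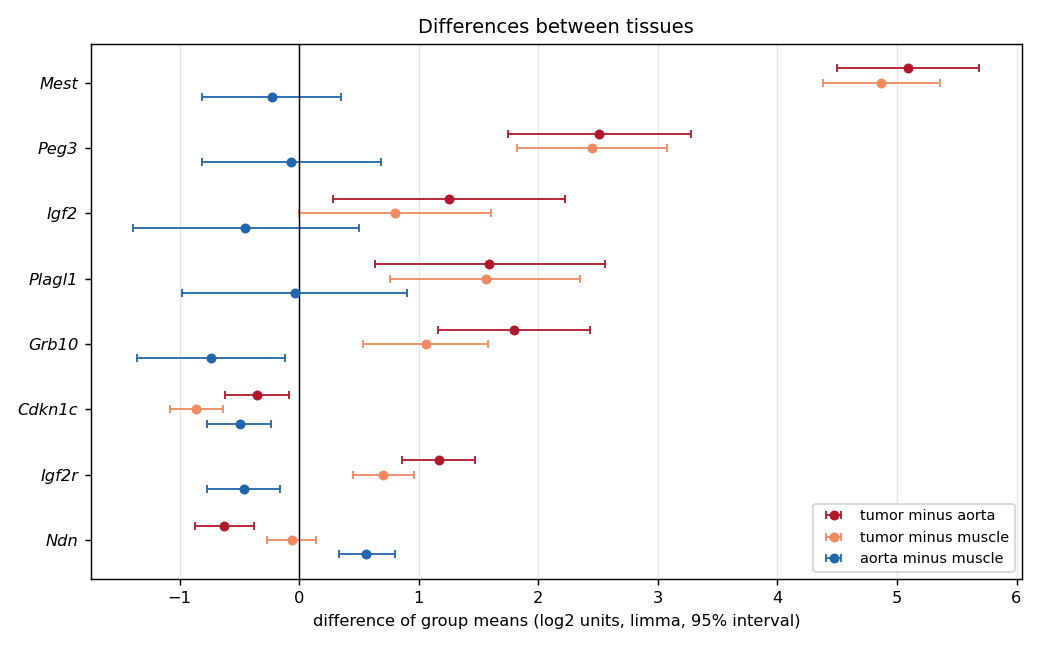
Difference of group means in log2 units (horizontal axis, 95% interval from limma) for the 8 genes, for tumor minus aorta, tumor minus muscle and aorta minus muscle. Mest lies near 5 in both tumor comparisons, and Cdkn1c lies below 0 in all 3 comparisons.

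H19 is a long non-coding RNA from the maternal copy, next to Igf2, that is abundant in fetal muscle and falls after birth. The probe set that carries H19 and Mir675 together had 11.19, 9.52, 9.38, 8.42, 7.07, 6.08 and 8.89 in tumors and 7.53, 5.51, 7.91 and 5.38 in aortas. It had 11.36, 11.43, 10.21 and 10.26 in sternocleidomastoid and 11.00, 10.92, 8.74 and 8.76 in quadriceps. Its signal cannot be assigned to either gene. It was brightest in sternocleidomastoid and dimmest in aorta, and the tumors spanned nearly the whole range. In a fit over all probe sets, the difference was 2.06 ± 0.78 between tumors and aorta (adjusted p = 0.0615), -1.69 ± 0.65 between tumors and muscle (adjusted p = 0.0424) and -3.75 ± 0.77 between aorta and muscle (adjusted p = 0.00109). Skeletal muscle markers averaged 9.65, 10.70, 7.44, 8.97, 5.48, 5.71 and 9.71 in the same tumors and 8.68, 6.65, 8.49 and 7.04 in the same aortas. In aorta, samples 1 and 3 were higher than samples 2 and 4 for both the probe set and the markers; whether muscle RNA set the level of the probe set was not tested.

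The hosted microRNA genes were read from their own probe sets, which do not separate hairpin from host transcript. Mir335, within Mest, was dim, at 5.96, 2.93, 4.47, 4.45, 3.42, 2.97 and 3.23 in tumors, against 3.33, 3.05, 3.48 and 3.14 in aorta. Tumors 1, 3 and 4 were above every aorta and the other 4 were not, and the difference was 0.67 ± 0.41 (adjusted p = 0.228). Mir483, within Igf2, averaged 7.59 in tumors and 7.66 in aorta, a difference of -0.07 ± 0.12 (adjusted p = 0.731).

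The normal tissues also differed from each other. Aorta minus muscle gave 1 higher and 2 lower members of 8, where 32.3% of all genes were called, 17% higher and 15.3% lower. Ndn was higher in aorta by 0.56 ± 0.11 (adjusted p = 0.000649). Cdkn1c (-0.50 ± 0.13, adjusted p = 0.00373) and Igf2r (-0.46 ± 0.14, adjusted p = 0.0177) were lower in aorta; Igf2r no longer passed when aorta 3 was left out (-0.43, adjusted p = 0.057) or with quadriceps as the only muscle (-0.39, adjusted p = 0.0893). Grb10 differed by -0.74 ± 0.30 (adjusted p = 0.0634), and it was called in 9 of 33 alternatives. These were leaving out quadriceps 3, quadriceps 4 or sternocleidomastoid 4 (-0.82 to -0.85), centring on the median gene (-0.80, adjusted p = 0.0458) or on housekeeping genes (-0.88, adjusted p = 0.0184), leaving out dim genes (adjusted p = 0.0458), 1 variance per group (adjusted p = 0.0341), the compared groups only (adjusted p = 0.0371) and the mean of Y-linked genes as a covariate. Mest, Peg3, Igf2 and Plagl1 were not called (adjusted p = 0.508 to 0.966). Tumor was first in the order of means for 6 of the 8 genes, last for Cdkn1c and below aorta and sternocleidomastoid for Ndn. Between sternocleidomastoid and quadriceps, 0 of 8 members were called, with adjusted p = 0.917 to 0.999, where 0.433% of all genes were called. The ranges of the muscles overlapped for all 8 members, whereas they did not for 7.6% of all genes.

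Within both muscles the same sample numbers differed. Samples 1 and 2 exceeded samples 3 and 4 for Peg3, Igf2, Grb10 and Plagl1 and for the probe set with H19 and Mir675, in both sternocleidomastoid and quadriceps. The noncoding RNA Rian, of the imprinted Dlk1 domain, had 8.20, 7.67, 6.76 and 6.46 in sternocleidomastoid and 8.61, 8.56, 6.53 and 6.79 in quadriceps. Xist had 10.59, 10.81, 5.20 and 5.10 in sternocleidomastoid and 10.64, 10.61, 5.71 and 5.14 in quadriceps. The labels do not say what samples 1 and 2 share, the split was seen in the data, and its source was not tested. The fit took all muscle samples as independent. If both muscles came from the same animals, the standard errors and p-values of comparisons with muscle could be too small. Cdkn1c, Ndn, Mest and Igf2r did not show this split in both muscles. With the mean of the Y-linked genes as a covariate, an alternative chosen after the data were seen, Mest still differed from aorta by 5.10 and from muscle by 4.80, and the number of members called was 8 against aorta and 6 against muscle. Between aorta and muscle it was 4 instead of 3, with Grb10 added (-0.83, adjusted p = 0.0309).

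**Figure D3:**
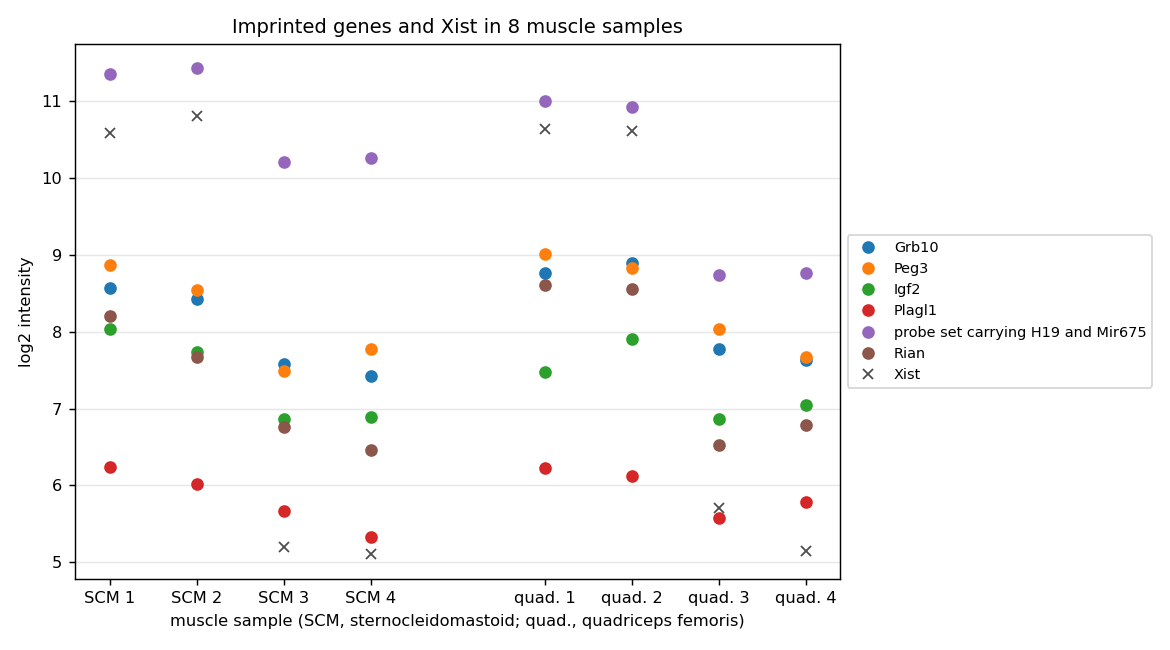
Log2 intensity (vertical axis) of Grb10, Peg3, Igf2, Plagl1, Rian and the probe set with H19 and Mir675 (circles), and of Xist (crosses), in the 8 muscle samples. In both muscles samples 1 and 2 lie above samples 3 and 4 for every one of these genes; replicate numbers follow label order only.

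Among the tumors the members differed in spread. Plagl1 and Igf2 had the largest tumor SD of the members (1.21 and 1.16), and Ndn and Cdkn1c the smallest (0.27 and 0.28). The median SD over all genes was 0.212 in tumors, 0.155 in aorta, 0.157 in sternocleidomastoid and 0.143 in quadriceps. The titles number tumors 1 to 4 before the normal tissues and tumors 5 to 7 after them; nothing in the labels says what the numbering means. Mest was 10.99 to 11.90 in tumors 1 to 4 and 10.00 to 10.47 in tumors 5 to 7, which do not overlap. Grb10, at 9.01 to 9.89 and 8.47 to 8.92, did not overlap either, while the other measured members did. How many of all genes separate in this way was not counted. The mitotic gene mean was 8.49 to 8.80 in tumors 1 to 4 and 7.34 to 7.82 in tumors 5 to 7. Measured within each set against aorta, Mest differed by 5.61 in tumors 1 to 4 and 4.40 in tumors 5 to 7, and Peg3 by 2.38 in tumors 1 to 4 and 2.70 in tumors 5 to 7. The part of the numbering in these differences was not tested.

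Over the 7 tumors, 22 of the 28 pairs of members had a positive Pearson r, with a median of 0.29. The highest was Igf2 with Igf2r, at r = 0.86 (exact permutation p = 0.0129 two-sided, 0.361 adjusted over 28 pairs) and rho = 0.89 (exact permutation p = 0.0123, 0.344 adjusted), and r was 0.81 without the 2 tumors farthest from the median of Igf2. Mest with Grb10 gave r = 0.68 (exact permutation p = 0.103, 0.864 adjusted) and rho = 0.64, and 0.43 without the 2 farthest. Both of these genes were higher in every 1 of tumors 1 to 4 than in any of tumors 5 to 7. The lowest was Mest with Peg3, at -0.40. The smallest p these permutations can give is 0.0004, and 0 pairs passed after adjustment and 1 before. Tumors 1 to 4 and 5 to 7 are too few for a correlation within each.

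**Figure D4:**
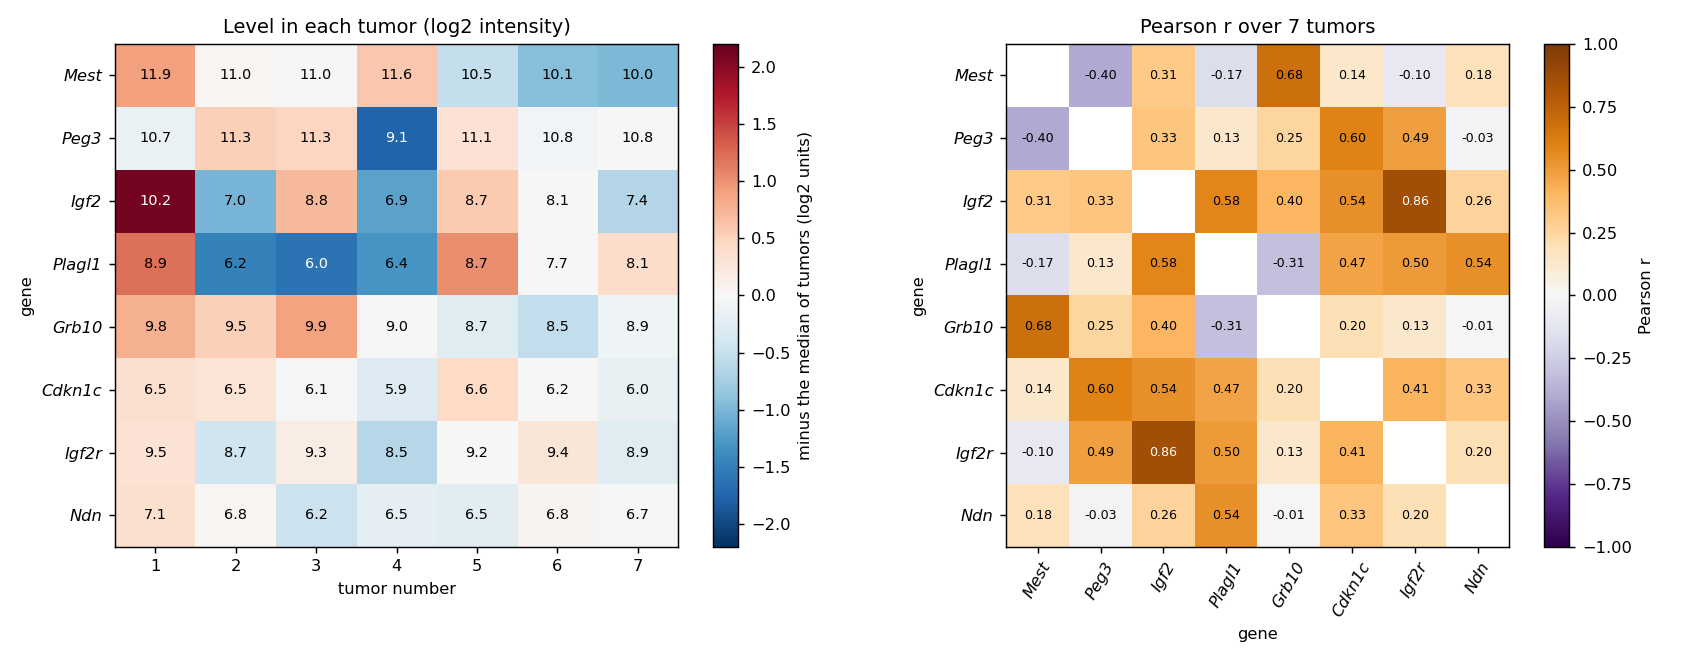
Left, log2 intensity of the 8 genes in the 7 tumors, coloured by the distance from the gene's median over tumors; right, Pearson r between genes over those tumors. Tumor 1 is highest for Mest, Igf2, Plagl1, Igf2r and Ndn, and Igf2 with Igf2r is the darkest pair, at 0.86.

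A Pearson r over all arrays mixes the gaps between tissues with the spread within each. The widest gap was not always between tumors and normal tissue. Ndn, for instance, averaged 7.29 in aorta, 6.66 in tumors, 6.64 in quadriceps and 6.81 in sternocleidomastoid. Genes with the most similar pattern by this r over all 19 arrays were ranked among 19245 genes. For Mest they were Ccnb2 and Bub1, of mitosis (r = 0.987 and 0.984), and for Peg3 they were Plk2 and Sema4c (0.938 and 0.937). For Igf2r they were Jup and Ppp1r2 (0.966 and 0.952), for Cdkn1c Zyg11b and Rp9 (0.941 and 0.939), and for Grb10 Pbdc1 and Ubtd2 (0.919 and 0.902). For Ndn they were Osr1 and Pcolce2 (0.884 and 0.862), for Plagl1 Ramp3 and Dync1i1 (0.883 and 0.861), and for Igf2 Mir148b and Ptchd4 (0.864 and 0.842). Over the 7 tumors alone, the 2 most similar genes of each member had r of 0.932 to 0.988 and were different genes, such as Hmces and Pcbp1 for Mest.

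Beyond the 9 genes, partners of the network often described with them (Dlk1, Meg3, Dcn, Gatm, Gnas, Sgce and Slc38a4) gave 2 higher and 0 lower of 7 against aorta, with a median difference of 0.13. These are 28.6% of the partners, beside 36.2% of all genes, and 42.9% were called against muscle, beside 51% of all genes. Gatm, an enzyme of creatine synthesis, averaged 7.40 in tumors and 6.08 in aorta, a difference of 1.32 ± 0.26 (adjusted p = 0.000489). Dlk1, a ligand-like protein that restrains fat cell formation, differed by 0.47 ± 0.14 (adjusted p = 0.00977). Against muscle 2 were higher and 1 was lower, with a median of 0.09 that became -0.08 with the arrays centred on housekeeping genes. Sgce, a sarcoglycan next to Peg10, averaged 8.57 in tumors and 7.53 in muscle (1.03 ± 0.14, adjusted p = 3.16e-06) and 8.22 in aorta. Slc38a4, an amino acid transporter, averaged 5.92 in tumors and 10.09 in muscle (-4.16 ± 0.35, adjusted p = 5.53e-09) and 6.00 in aorta.

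Of 52 other imprinted genes, 43 were measured, and 9 were higher and 5 lower in tumors than in aorta (median 0.05), or 32.6% called, beside 36.2% of all genes. Against muscle 13 were higher and 9 lower, or 51.2% called, beside 51% of all genes, with a median of 0.08, or -0.09 with the arrays centred on housekeeping genes. The share called was near that of all genes in both comparisons. Peg10, a retrotransposon-derived gene needed for the placenta, had 9.41, 8.23, 8.66, 8.14, 7.31, 7.61 and 7.67 in tumors and 6.57, 6.39, 6.57 and 6.46 in aorta. Every tumor was above every aorta for Peg10, and the differences were 1.65 ± 0.27 from aorta (adjusted p = 6.11e-05) and 1.51 ± 0.22 from muscle (adjusted p = 7.94e-06). Asb4, a ubiquitin ligase adaptor, differed by 1.82 ± 0.34 from aorta (adjusted p = 0.000279), where it was dim at 4.55, but was lower than in muscle (-0.78 ± 0.28, adjusted p = 0.0272). Htr2a, a serotonin receptor, differed by 1.77 ± 0.17 from muscle (adjusted p = 3.6e-08), and it averaged 7.25 in tumors and 6.52 in aorta. Rian rose by 1.36 ± 0.45 against aorta (adjusted p = 0.0235) and by 1.35 ± 0.37 against muscle (adjusted p = 0.00472).

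**Figure D5:**
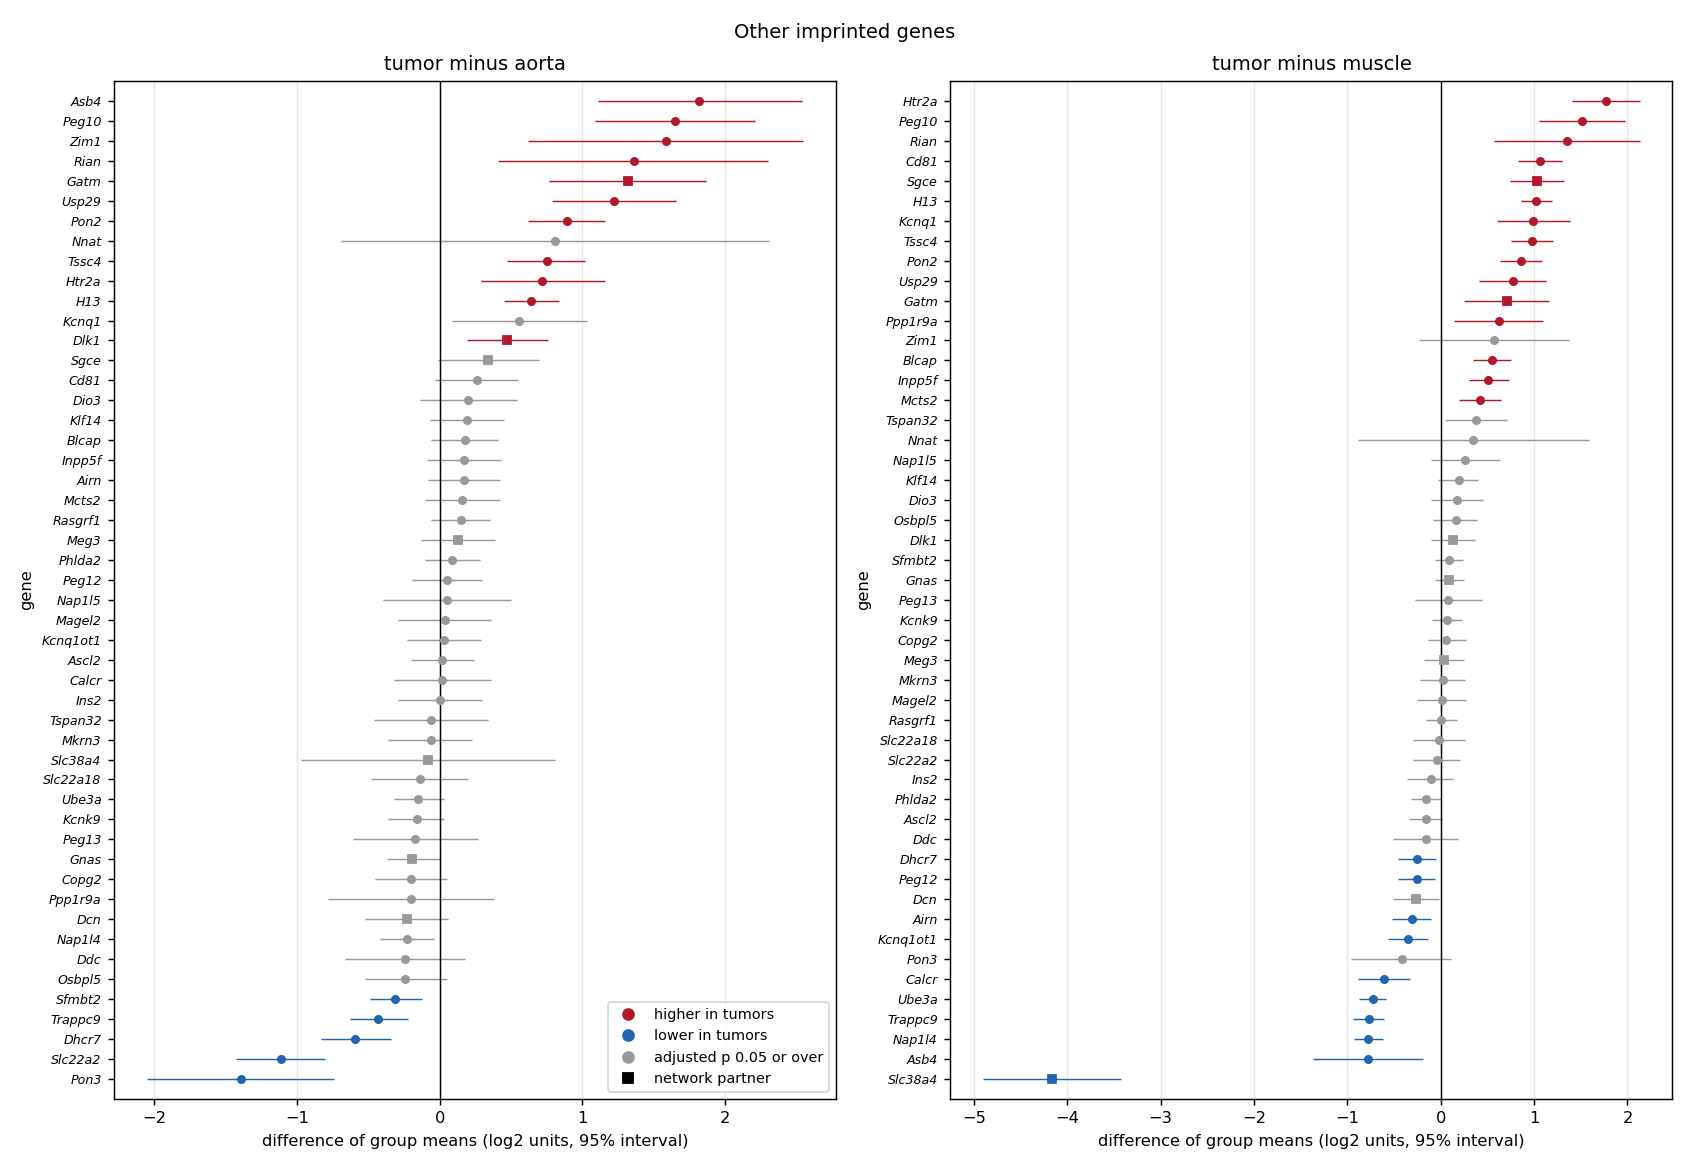
Difference of group means in log2 units (horizontal axis, 95% interval) of 43 other imprinted genes (circles) and 7 network partners (squares), tumor minus aorta on the left and tumor minus muscle on the right, sorted by size. Red and blue mark genes called higher and lower in tumors, and most genes lie within 1 log2 unit of 0. Over all genes tested, 11.8% differed by more than 1 log2 unit from aorta and 17.6% from muscle.

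Genes of the insulin-like growth factor pathway, 19 measured of 21, gave 5 higher and 3 lower against aorta (median 0.23) and 7 higher and 4 lower against muscle (median 0.30). The share called was 42.1% against aorta, beside 36.2% of all genes, and 57.9% against muscle, beside 51%. Igfbp3, a binding protein that holds growth factor in the circulation and in tissue, had 11.26, 10.83, 11.54, 9.94, 9.01, 7.52 and 10.17 in tumors, against 7.87, 7.58, 7.56 and 7.19 in aorta. Only tumor 6 lay within the range of the aortas, and the difference was 2.49 ± 0.53 (adjusted p = 0.000901). Igfbp4, another binding protein, rose by 1.30 ± 0.21 relative to aorta (adjusted p = 7.98e-05) and by 2.02 ± 0.18 relative to muscle (adjusted p = 9.89e-09). Stc1, a secreted glycoprotein, rose by 1.24 ± 0.40 against aorta (adjusted p = 0.0195). Igfbp7, a secreted matrix protein of vessels, rose by 1.81 ± 0.11 against muscle (adjusted p = 1.04e-10). Its mean was 11.79 in tumors, but normal aorta was also far above muscle, at 11.43. The growth-promoting receptor Igf1r was not called against aorta (0.14 ± 0.22, adjusted p = 0.66) or muscle (0.30 ± 0.18, adjusted p = 0.175). The 3 genes lower than in aorta were the insulin receptor Insr and the adaptors Irs1 and Irs2, which carry its signal, and all 3 were lower than in muscle too. Insr averaged 8.49 in tumors and 9.23 in aorta (-0.75 ± 0.15, adjusted p = 0.000542). Irs1 averaged 7.52 in tumors and 8.51 in aorta (-0.99 ± 0.34, adjusted p = 0.0261), and Irs2 averaged 7.85 in tumors and 8.89 in aorta (-1.04 ± 0.26, adjusted p = 0.00381). Not every tumor was lower. Irs1 in tumors 5 and 6, at 9.02 and 8.58, was above every aorta. Irs2 in tumors 4 and 5 (8.42 and 8.80) and Insr in tumor 5 (9.25) lay within the range of the aortas.

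Genes that set, keep, read or remove DNA methylation at imprinted and other regions, 14 listed and all measured, gave 9 higher and 2 lower against aorta (median 0.37) and 7 higher and 1 lower against muscle (median 0.24). The share called was 78.6% against aorta, beside 36.2% of all genes, and 57.1% against muscle, beside 51%. Dnmt1, which copies methylation to new DNA strands, had 8.95, 8.94, 9.21, 8.84, 8.57, 8.61 and 8.53 in tumors and 7.71, 7.71, 7.39 and 7.48 in aorta. All tumors were above all aortas, and the difference was 1.23 ± 0.12 (adjusted p = 1.71e-07), with 1.42 ± 0.10 against muscle (adjusted p = 3.75e-10). Zfp57, the zinc finger protein that protects imprinted control regions, rose by 0.97 ± 0.14 relative to aorta (adjusted p = 1.49e-05) and by 1.30 ± 0.11 relative to muscle (adjusted p = 9.83e-09). Trim28, its partner, rose by 0.90 ± 0.14 against aorta (adjusted p = 3.68e-05), and Uhrf1, which guides Dnmt1 to DNA, rose by 1.07 ± 0.13 against muscle (adjusted p = 9.78e-07). Of the Tet enzymes, which oxidise methylated bases and so lead to their removal, Tet3 rose by 0.90 ± 0.10 (adjusted p = 5.32e-07) and Tet2 by 0.60 ± 0.14 (adjusted p = 0.00229) against aorta, and Tet1 fell by 0.46 ± 0.12 (adjusted p = 0.00419). The other gene lower than in aorta was Zfp445, a zinc finger protein of imprinted control regions (-0.21 ± 0.07, adjusted p = 0.0227). The mitotic genes rose in the same tumors, and whether proliferation set the level of Dnmt1 was not tested.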

How the data were processed

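Total RNA (miRNeasy kit) was labelled with biotin, per the labels' protocols. From their range, the deposited values were taken to be log2 intensity. The submitters' processing notes name Partek 6.6; its role and the normalization are not stated in those notes, and no further scaling was applied. Of 41345 probe sets, 23521 carried a single symbol, and the brightest by mean over 19 arrays stood for each of 22180 genes. The limma package, version 3.58.1 (functions lmFit and eBayes, two-sided tests), in R 4.3.3 fitted 1 mean per group, with Benjamini-Hochberg adjustment at 0.05, and was tested on simulated data. Python 3.11.15 with pandas 2.3.3 made the tables, and matplotlib 3.10.9 the figures. A gene was called dim where its group mean was below the lowest array median. The alternative that left out dim genes used another rule. It dropped genes whose highest group mean was below the median value of all genes tested.

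Groups came from the labels, and replicate numbers only follow their order. The genes and lists were chosen with earlier results of these data known. The text names, of each list, genes among the 3 largest called differences of a comparison; Usp29, Copg2, Igf1r, Insr, Irs1, Irs2, Tet1, Tet2 and Zfp445 were added after their values were seen, and Rian for its muscle values. Alternatives covered scaling, filters, the variance model, thresholds, probe set choice, single muscles, tumor subsets and leaving out each array. Arrays give no count depth, so their number limits precision.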

Additional observations from a re-analysis of the deposited data

Results flagged for a closer look

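Of 32 groups of samples examined (8 genes in 4 groups), 3 held a sample set far from the rest, by the ratio of its gap to the group's range; chance gives about 1 in 20 such groups. Peg3 in tumor 4, at 9.06, was the lowest of the 7 tumors, with a gap of 0.706 of their range. Grb10 in aorta 4, at 7.13, was the lowest of the 4 aortas, with a gap of 0.892 of their range. Igf2r in sternocleidomastoid 4, at 8.39, was the lowest of 4 tightly grouped samples, with a gap of 0.833 of their range.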

How the results depend on the processing

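Of 1056 member values under alternatives, 987 kept direction and side of the threshold. This count includes sternocleidomastoid against quadriceps, where no member was called, and fits that dropped an array outside the comparison. Against aorta, Igf2 lost its call in 12 of 33 alternatives and Cdkn1c in 13 of 33. Mest, Peg3, Grb10 and Igf2r against aorta, and Mest, Peg3 and Plagl1 against muscle, kept their calls in every alternative run. With a 2-fold minimum, 2569 genes were called against aorta, 3863 against muscle and 1993 between aorta and muscle, with 0 members in the last. Between sternocleidomastoid and quadriceps, 219 genes were called with 1 variance per group, 200 with the compared groups only, 49 at a threshold of 0.01, 52 with a 2-fold minimum and 52 to 123 leaving out each array in turn (52 without quadriceps 2, 60 without quadriceps 1 and 63 without quadriceps 3). Igf2 and Cdkn1c lost their calls against aorta with the compared groups only (adjusted p = 0.0922 and 0.0708) and with adjustment over all probe sets, an alternative added after seeing the data (0.0559 and 0.052). Several uncalled differences changed sign. Ndn against muscle was 0.02 with quadriceps alone and -0.13 to 0.01 leaving out each array. Between aorta and muscle, Peg3 was 0.04 and Plagl1 0.02 with sternocleidomastoid alone, and leaving out each array gave -0.19 to 0.05 for Peg3 and -0.13 to 0.10 for Plagl1. Between sternocleidomastoid and quadriceps, Plagl1 was 0.05 as a mean over probe sets, and leaving out each array gave -0.12 to 0.08 for Mest, -0.46 to 0.01 for Peg3, -0.15 to 0.26 for Igf2, -0.25 to 0.06 for Plagl1 and 0 to 0.14 for Cdkn1c. The causes were not tested. No paired analysis was possible because the labels give no replicate numbers or animal identity.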
